A study of Arabidopsis thaliana with 23 samples.

Results

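Cortex/endodermis initial (CEI) cells were set against root ground tissue of a SCARECROW (SCR)-inducible line after 12 h of induction, on 5 of the 23 Arabidopsis ATH1 arrays of the series. The CEI group had 3 arrays, of a line in which GFP marks the cells that express CYCD6, grown on standard medium. The SCR group had 2 arrays, of plants carrying the J0571 ground tissue marker and an inducible SCR, moved to medium with 1 micromolar dexamethasone (Dex). All plants were seedlings of 5 days in the Columbia ecotype. The other 18 arrays held an inducible SHORT-ROOT (SHR) line at 0, 1, 3, 6 and 12 h on Dex and the SCR line at 0, 1, 3 and 6 h, with 2 arrays each. No array of the SCR line without Dex at 12 h was among them, and the CEI group had no Dex. Cell type, marker line, the transgene and the medium therefore cannot be told apart in this comparison. The labels call the arrays biological replicates, each from the pooled roots of many seedlings. They name sorted cells as the source, whereas the protocol text of the same samples describes roots cut below the hypocotyl and placed in RNA buffer.

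The CEI is the stem cell of the root ground tissue. Its daughter divides lengthwise into a cortex cell and an endodermis cell. SHR protein is made in the stele and moves outward by a cell layer, where it acts with SCR, a GRAS transcription factor, to switch on the D-type cyclin CYCD6 and so the formative division. SCR also keeps SHR in the endodermis and is needed for the stem cell niche around the quiescent centre. J0571 is an enhancer-trap marker of the cortex and endodermis layers.

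SHR, SCR and CYCD6 were not named in the annotation used here, so the labels could not be checked through the induced genes or the marker gene. Replicate arrays correlated at 0.959 to 0.970 across probe sets within CEI cells and at 0.970 within the SCR 12 h group, and at 0.876 to 0.902 between them. Of the listed markers, few were named: 2 of 2 for cortex, 2 of 16 for the endodermal barrier, 2 of 19 for stele, 2 of 14 for epidermis and root hairs, 3 of 10 for the stem cell niche and 0 of 7 for root cap. The summed signal of the epidermis and root hair markers was 426, 432 and 149 on the CEI arrays, against 46.6 and 161 on the SCR 12 h arrays. The stele markers summed to 1747, 1590.1 and 1641 on the CEI arrays, against 753 and 565 on the SCR 12 h arrays. The stele sums were all higher in CEI cells and came almost wholly from 1 gene, LHW, while the epidermal sums overlapped, and the part of such cells in the results below was not tested. The ratio of 3′ to 5′ actin probe signal was 11.7, 4.79 and 10.5 in CEI cells and 13.2 and 12.1 in the SCR line, so that CEI replicate 2 stood lowest, and the part of RNA quality in the results was not tested.

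The CEI and SCR 12 h profiles differed widely, and the genes that were lower in CEI cells differed by more. With limma on log2(signal + 10) and Benjamini-Hochberg adjustment at 0.05, 5152 of 15983 tested probe sets (32.2%) differed, 2856 higher (17.9%) and 2296 lower (14.4%) in CEI cells. The arrays of the groups did not overlap for 5142 of them. Over all tested probe sets the CEI arrays stood wholly above the SCR 12 h arrays for 37.8% and wholly below for 24.9%. Among the called probe sets the median log2 difference was 1.19 for those higher in CEI cells and -1.69 for those lower. Differences beyond 2 on the log2 scale numbered 146 higher (0.913%) and 849 lower (5.31%), and beyond 4 they numbered 1 higher (0.00626%) and 112 lower (0.701%). Typical signals in CEI cells and the SCR line were 340 and 138 (medians) for the higher probe sets and 103 and 428 for the lower ones.

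The size of the counts rested on both SCR 12 h arrays. Without SCR 12 h replicate 1 the counts were 1049 higher and 1418 lower, and without replicate 2 they were 851 higher and 1194 lower, each time with the remaining array assumed to vary like the other groups. Leaving out CEI replicate 2 gave 1886 higher and 2114 lower. Calls beyond 2 on the log2 scale kept their proportions, at 139 to 190 higher and 725 to 888 lower when any of the 5 arrays was left out. The median log2 difference over all tested probe sets was 0.19. As each value is a share of RNA in a bulk sample, fewer cells of a type and less RNA per cell cannot be told apart.

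**Figure D1:**
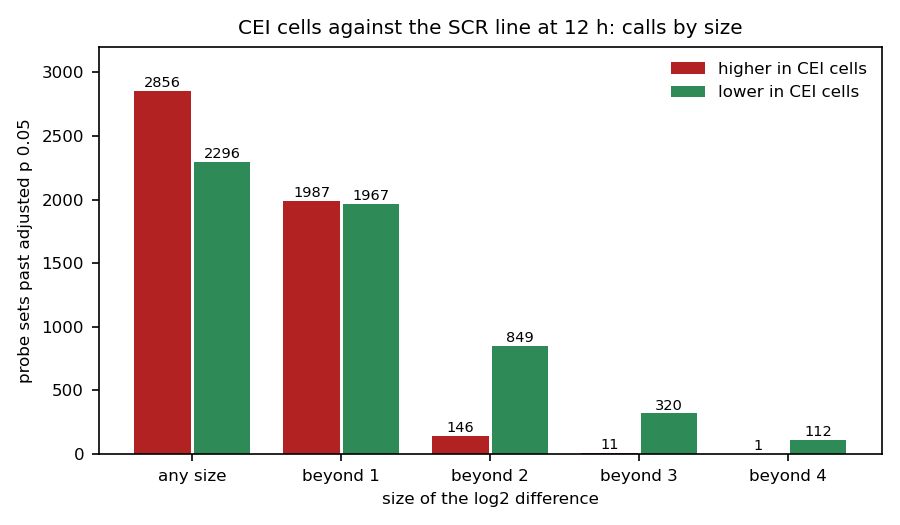
Number of probe sets past an adjusted p of 0.05 in CEI cells against the SCR line at 12 h (y axis), by the size of the log2 difference they exceed (x axis). Calls of any size were 2856 higher and 2296 lower in CEI cells, while those beyond 3 were 11 higher (0.0688%) and 320 lower (2%).

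Among stem cell niche genes BBM (BABY BOOM) stood out. It encodes an AP2 transcription factor of the PLETHORA family, which maintains the root stem cell niche. Its signal was 589, 384 and 397 on the CEI arrays, against 65.3 and 67.7 on the SCR 12 h arrays. Each CEI array was above both SCR 12 h arrays, a log2 difference of 2.58 ± 0.56 (adjusted p = 0.00281), 5.99-fold on the signal + 10 scale. Over all 20 time-course arrays BBM ran from 4.78 to 144, below every CEI array. Its call held when any of the 5 arrays was left out (adjusted p 0.00752 to 0.0296). The other tested niche members were not called. AGL42, a MADS-box gene known as a quiescent centre marker, read 44.3, 68.5 and 51.7 on the CEI arrays, against 25.8 and 28.5 on the SCR 12 h arrays, with no overlap and a log2 difference of 0.79 ± 0.44 (adjusted p = 0.173). CR4 (ACR4), a receptor kinase of formative divisions in the root, differed by 0.60 ± 0.52 (adjusted p = 0.385).

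The tested ground tissue regulators did not pass the threshold, 0 of 3, with log2 differences from -0.06 to 0.44 and a median of 0.00. JKD (JACKDAW), a zinc-finger factor that acts with SHR and limits how far it moves, read 135, 246 and 142 on the CEI arrays, against 175 and 176 on the SCR 12 h arrays, with the SCR values inside the CEI range. SCL23 (AT5G41920), from the GRAS family that includes SCR, was at 0.00 ± 0.30 (adjusted p = 0.994). SLY2 (SNEEZY), an F-box protein that targets DELLA repressors of gibberellin signalling, differed by 0.44 ± 0.55 (adjusted p = 0.568). The remaining 9 of the 12 listed regulators were not tested here.

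Of the gibberellin receptors 1 of 3 fell, where 14.4% of all tested probe sets did. GID1B read 76.1, 107 and 66.9 on the CEI arrays, against 415 and 392 on the SCR 12 h arrays, with every CEI value below both SCR values. The log2 difference was -2.17 ± 0.38 (adjusted p = 0.000658), a 4.50-fold lower level, and it held when any of the 5 arrays was left out. GID1A and GID1C, which bind the same hormone and hand DELLA proteins to degradation, differed by -0.44 ± 0.29 (adjusted p = 0.253) and -0.37 ± 0.40 (adjusted p = 0.489). In the SCR line GID1B averaged 198, 408, 302, 279 and 403 at 0, 1, 3, 6 and 12 h.

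Markers of the differentiated layers were few. Of the endodermal barrier genes 1 of 2 tested fell, where 14.4% of all tested probe sets did. AT1G61590 was not called, at a log2 difference of -0.61. It read 258, 215 and 302 on the CEI arrays, against 401 and 391 on the SCR 12 h arrays, without overlap. GSO1 (GASSHO1), the receptor kinase that guides sealing of the endodermal Casparian strip, read 345, 311 and 385 on the CEI arrays, against 1177 and 926 on the SCR 12 h arrays. All CEI values lay below both SCR values, a log2 difference of -1.57 ± 0.47 (adjusted p = 0.0175). Its call ended without SCR 12 h replicate 1 or 2 (0.119 and 0.0667), where brackets after an array hold the adjusted p without it. Of the cortex list 0 of 2 were called: AT1G09750 read 37.3, 343 and 369 on the CEI arrays, against 903 and 529.9 on the SCR 12 h arrays, where CEI replicate 1 stood far below the other CEI arrays. Its log2 difference was -1.92 ± 0.73 (adjusted p = 0.0523), and it passed without CEI replicate 2 (adjusted p = 0.0370) or CEI replicate 3 (adjusted p = 0.0297). AT1G62500 differed by 0.42 ± 0.60 (adjusted p = 0.610). LHW (LONESOME HIGHWAY), a bHLH factor that sets the number of vascular cells and is on the stele list, read 1708, 1527 and 1604 on the CEI arrays, against 705 and 511 on the SCR 12 h arrays. The groups did not overlap and the log2 difference was 1.41 ± 0.43 (adjusted p = 0.0197), which did not pass without SCR 12 h replicate 1 or 2 (0.0546 and 0.155). PHV, a homeodomain factor of the same list, differed by -0.16 ± 0.33 (adjusted p = 0.734). The root hair expansins EXPA7 and EXPA18 differed by 1.77 ± 0.89 (adjusted p = 0.132) and 1.44 ± 0.89 (adjusted p = 0.223).

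Of the tested genes of mitosis 2 of 3 and of DNA replication 1 of 2 rose in CEI cells and 0 fell, where 17.9% of all tested probe sets rose and 14.4% fell, and these calls depended on single arrays. Aurora kinases act on chromosomes and the cell plate in mitosis. AUR1 read 741, 624 and 537 on the CEI arrays, against 266 and 229 on the SCR 12 h arrays, AUR2 648, 516 and 506 against 238 and 197, and AUR3 212, 213 and 231 against 80.6 and 138. All CEI values were above all SCR 12 h values for each of the 3. Log2 differences were 1.31 ± 0.42 (adjusted p = 0.0242) for AUR1, 1.31 ± 0.52 (adjusted p = 0.0606) for AUR2 and 0.98 ± 0.36 (adjusted p = 0.0458) for AUR3, so 2 of 3 passed. The AUR1 call ended without SCR 12 h replicate 1 or 2 (0.0821 and 0.141), CEI replicate 1 (0.0685) or CEI replicate 2 (0.0519), and the AUR3 call without any 1 of the 5 arrays (adjusted p 0.0593 to 0.343). On the time-course arrays AUR1 ran from 96.1 to 646, overlapping the CEI arrays through 1 array of the SHR line at 12 h, where it read 478 and 646.

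Of the replication list, PRL (PROLIFERA), a subunit of the helicase that opens DNA at origins, read 881, 919 and 733 on the CEI arrays, against 458 and 311 on the SCR 12 h arrays. The groups did not overlap, with a log2 difference of 1.13 ± 0.41 (adjusted p = 0.0453), and the call ended without any 1 of the 5 arrays (adjusted p 0.0614 to 0.275). ICU2, the catalytic subunit of DNA polymerase alpha, differed by 0.87 ± 0.34 (adjusted p = 0.0579). Among 6 histone genes 3 rose and 0 fell (17.9% and 14.4% over all tested probe sets), with a median of 0.80 against 0.19 over all tested probe sets. HTR12, the centromeric histone H3 that marks where the spindle attaches, read 121, 127 and 65.3 on the CEI arrays, against 56.5 and 31.3 on the SCR 12 h arrays. CEI values were all higher, a difference of 1.08 ± 0.37 (adjusted p = 0.0342), and the H2B genes HTB4 and HTB11 differed by 1.02 ± 0.35 (adjusted p = 0.0321) and 0.89 ± 0.31 (adjusted p = 0.0360). The HTR12 call ended without SCR 12 h replicate 2 (0.286), CEI replicate 1 (0.0963) or CEI replicate 2 (0.102). Without SCR 12 h replicate 1 or 2 the called histones were 1 and 0, without CEI replicate 1 or 3 they were 0 and 1, and without CEI replicate 2 there were 2.

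The next 8 genes, which act on DNA, chromatin or chromosomes, were picked because their values were higher, so their direction is a description. RAD5 (RAD5A), a DNA repair helicase, read 50.6, 52.8 and 36.7 on the CEI arrays, against 3.53 and 3.05 on the SCR 12 h arrays. Its log2 difference of 2.08 ± 0.30 (adjusted p = 0.000122) held when any of the 5 arrays was left out. The SCR line averaged 29.1, 22.3, 21.8, 26.8 and 3.29 for RAD5 at 0, 1, 3, 6 and 12 h, so that its SCR 12 h level was the low one of that line. HDA15, a histone deacetylase, read 558, 1050.3 and 459.8 on the CEI arrays, against 182 and 153 on the SCR 12 h arrays, with no overlap and a difference of 1.89 ± 0.33 (adjusted p = 0.000609) that also held. TERT, the catalytic subunit of telomerase, differed by 1.79 ± 0.56 (adjusted p = 0.0231), a call that ended without SCR 12 h replicate 2 (0.190), CEI replicate 1 (0.0616) or CEI replicate 2 (0.0536). Topoisomerases TOP3A and TOPII, which untangle DNA, differed by 1.63 ± 0.39 (adjusted p = 0.00536) and 1.42 ± 0.52 (adjusted p = 0.0475). The TOP3A call ended without SCR 12 h replicate 2 (0.0532) and the TOPII call without any 1 of the 5 arrays (adjusted p 0.0505 to 0.202). The spindle checkpoint proteins BUBR1 and BUB3.1, which hold back anaphase until chromosomes are attached, differed by 1.30 ± 0.47 (adjusted p = 0.0434) and 1.46 ± 0.51 (adjusted p = 0.0385), and both calls ended without any 1 of the 5 arrays. POLD3, a DNA polymerase delta subunit, differed by 1.44 ± 0.39 (adjusted p = 0.0109), a call that ended without SCR 12 h replicate 1 or 2 (0.0625 and 0.0730).

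Subunits of the nuclear RNA polymerases, also grouped after their values were seen, numbered 12, of which 5 rose and 0 fell, where 17.9% of all tested probe sets rose (median 0.80 against 0.19). NRPC1 and NRPC2, the largest subunits of RNA polymerase III, which makes transfer RNA, were the clearest. NRPC1 read 236, 262 and 194 on the CEI arrays, against 79.0 and 68.1 on the SCR 12 h arrays and NRPC2 1053, 1115 and 919 against 317 and 251. Neither gene's groups overlapped, and the differences were 1.52 ± 0.33 (adjusted p = 0.00309) for NRPC1 and 1.83 ± 0.44 (adjusted p = 0.00583) for NRPC2. The NRPC1 call held when any of the 5 arrays was left out, and that of NRPC2 ended without SCR 12 h replicate 2 (0.0647). NRPA2, of the polymerase I that makes ribosomal RNA, differed by 1.31 ± 0.48 (adjusted p = 0.0466), a call that ended without SCR 12 h replicate 1 or 2 (0.144 and 0.182), CEI replicate 1 (0.116) or CEI replicate 2 (0.120). NRPB9B and NRPB7, of polymerase II, were the other 2 called, at 0.96 ± 0.33 (adjusted p = 0.0342) and 0.77 ± 0.26 (adjusted p = 0.0342), and both calls ended without either SCR 12 h array, CEI replicate 1 or CEI replicate 3. NRPB6A and NRPB9A differed by 0.30 ± 0.35 (adjusted p = 0.520) and -0.04 ± 0.40 (adjusted p = 0.948). The count of subunits called fell to 2 without SCR 12 h replicate 1, to 1 without SCR 12 h replicate 2, to 2 without CEI replicate 1 and to 3 without CEI replicate 3.

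The largest differences upward included genes of the cell wall. XTH21, a xyloglucan endotransglucosylase/hydrolase that cuts and rejoins cell wall xyloglucan, read 400.4, 363 and 588 on the CEI arrays, against 27.0 and 18.1 on the SCR 12 h arrays. All CEI arrays were far above, a log2 difference of 3.81 ± 0.57 (adjusted p = 0.000178). ATGSTF13, a glutathione S-transferase, read 997, 784 and 851 on the CEI arrays, against 78.6 and 50.2 on the SCR 12 h arrays, a difference of 3.60 ± 0.41 (adjusted p = 1.92e-05). EXPA15, an expansin that loosens cell walls, read 888, 1108 and 874 on the CEI arrays, against 130.4 and 90.6 on the SCR 12 h arrays, a difference of 3.02 ± 0.40 (adjusted p = 6.54e-05). Both genes also had no overlap between the groups, and all 3 calls held when any of the 5 arrays was left out. ATOEP16-2, of a family of plastid outer envelope proteins, read 178, 70.5 and 84.7 on the CEI arrays, against 3.87 and 3.23 on the SCR 12 h arrays. Its CEI values spread widely but stayed above, with a difference of 3.06 ± 0.59 (adjusted p = 0.00133). Its SCR readings were below the 10 added before log2, and the difference was 4.51 with 1 added and 1.53 with 50 added.

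The 12 largest differences upward among probe sets with 1 named gene also held 8 loci without a symbol in the annotation. AT5G62330 read 351, 153 and 299 on the CEI arrays, against 7.29 and 2.63 on the SCR 12 h arrays, with a difference of 4.15 ± 1.00 (adjusted p = 0.00577). Its SCR readings were below the pseudocount of 10, and the difference was 5.53 with a pseudocount of 1 and 2.47 with a pseudocount of 50. AT3G26922 read 119, 122 and 105 on the CEI arrays, against 1.27 and 3.299 on the SCR 12 h arrays and AT3G32030, whose probe set may bind transcripts of related genes as well, read 113, 113 and 187 against 5.03 and 8.14. The SCR values of all 3 were near the bottom of the signal range, and the differences of AT3G26922 and AT3G32030 were 3.35 ± 0.58 (adjusted p = 0.000533) and 3.12 ± 0.44 (adjusted p = 9.85e-05). The other 5 loci differed by 2.80 to 3.46. Without SCR 12 h replicate 2 the calls of AT5G62330 (adjusted p = 0.0573) and AT5G43030 (adjusted p = 0.140) ended. The CEI arrays stood above all 20 time-course arrays for 11 of the 12 genes, the exception being AT5G43030. As the 12 were chosen for their size, that count is a description, where 7.38% of all tested probe sets and 34.5% of those called higher stood above all 20. The size of 7 of the 12 differences moved by over 1.5 times with a pseudocount of 1 or 50, so their order depends on it.

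UBC37, a ubiquitin-conjugating enzyme, read 203, 180.1 and 159.8 on the CEI arrays, against 23.4 and 33.6 on the SCR 12 h arrays. The groups did not overlap, and its log2 difference of 2.32 ± 0.39 (adjusted p = 0.000447) was the only rise among 11 tested genes of that family, of which 3 fell (1 without SCR 12 h replicate 1 or 2). Over all tested probe sets 17.9% rose and 14.4% fell. Of the probe sets without a named gene, the pair higher in CEI cells with the smallest adjusted p differed by 3.42 ± 0.37 (adjusted p = 1.25e-05) and 2.87 ± 0.27 (adjusted p = 4.13e-06).

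**Figure D2:**
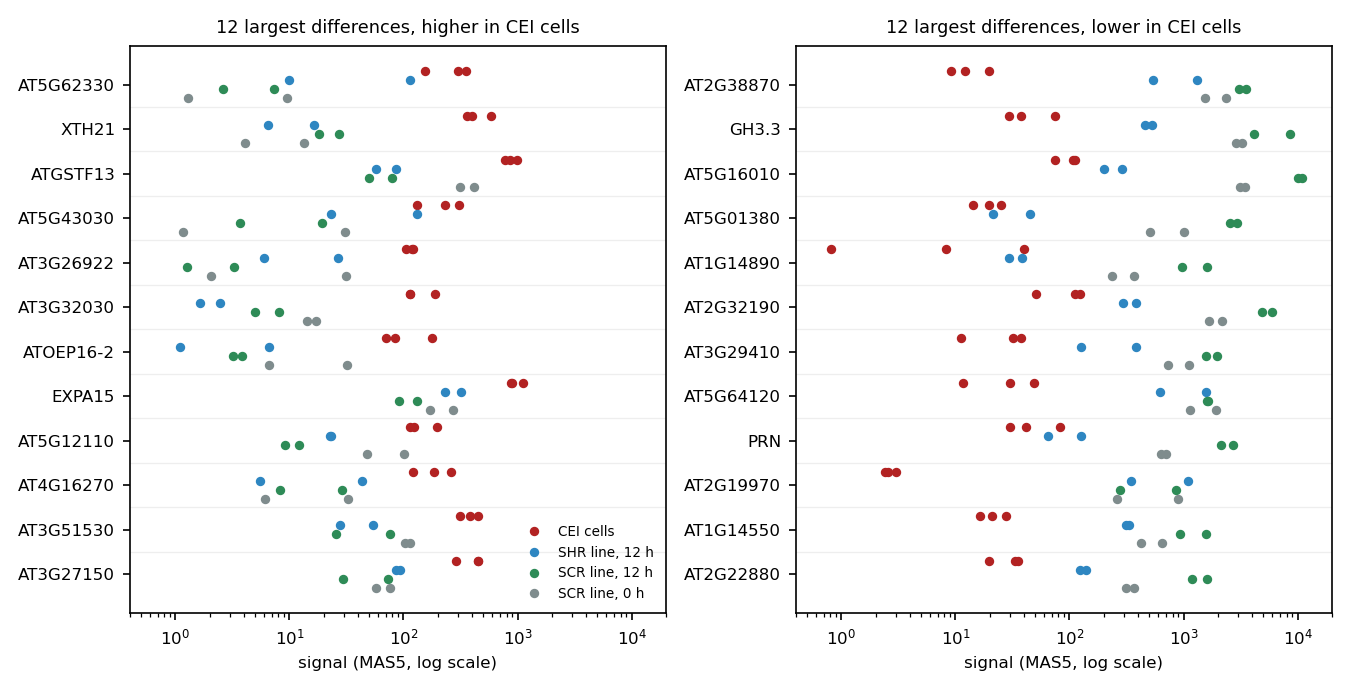
Signal on each array (x axis, log scale) for the 12 named genes with the largest log2 difference upward (left) and downward (right) in CEI cells, with CEI cells, the SHR line at 12 h, the SCR line at 12 h and the SCR line at 0 h from top to bottom within each gene. CEI points do not overlap those of the SCR line at 12 h, which the rule for these genes required.

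Downward differences were larger. AT2G38870 read 12.1, 9.19 and 19.9 on the CEI arrays, against 3083 and 3539.7 on the SCR 12 h arrays, near the bottom of the range on all CEI arrays and high on both SCR arrays. The log2 difference was -7.15 ± 0.57 (adjusted p = 1.50e-06), with -7.87 and -5.72 at pseudocounts of 1 and 50. Over the 20 time-course arrays the gene never read below 531. GH3.3, an enzyme that conjugates auxin to amino acids and so lowers free auxin, read 74.5, 37.4 and 29.3 on the CEI arrays, against 4169 and 8538 on the SCR 12 h arrays. Every CEI value was below both SCR values, with a difference of -6.79 ± 0.65 (adjusted p = 4.75e-06). AT5G16010 read 107, 74.3 and 111 on the CEI arrays, against 10095 and 10941 on the SCR 12 h arrays, a difference of -6.63 ± 0.56 (adjusted p = 1.85e-06), and AT5G01380 read 25.0, 14.2 and 19.7 on the CEI arrays, against 2568 and 2937 on the SCR 12 h arrays, a difference of -6.55 ± 0.61 (adjusted p = 4.13e-06). AT5G64120 (peroxidase 71), a secreted enzyme that works on the cell wall, read 30.2, 11.7 and 48.9 on the CEI arrays, against 1618 and 1634 on the SCR 12 h arrays, a difference of -5.46 ± 0.63 (adjusted p = 1.82e-05). PRN, a pirin, read 30.3, 83.4 and 41.6 on the CEI arrays, against 2143 and 2724 on the SCR 12 h arrays, a difference of -5.39 ± 0.44 (adjusted p = 1.67e-06). The groups were separated in each, and these 6 calls held when any of the 5 arrays was left out.

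The other 6 of the 12 largest downward differences were loci without a symbol and lay between -5.87 and -5.16. AT1G14890 read 39.98, 8.33 and 0.812 on the CEI arrays, against 966 and 1605 on the SCR 12 h arrays, where CEI replicate 1 was well above the other CEI arrays and still far under the SCR arrays. AT2G19970 read 2.43, 3.02 and 2.55 on the CEI arrays, against 852 and 276 on the SCR 12 h arrays, with a wide gap between the SCR arrays. For 9 of the 12 genes the CEI arrays lay below all 20 time-course arrays, and for AT5G01380, PRN and AT1G14890 they overlapped with arrays of the SHR line. These 12 too were chosen for their size, and 6.13% of all tested probe sets and 36.5% of those called lower lay below all 20. With other pseudocounts the difference of 1 of the 12, AT2G19970, moved by over 1.5 times, to -7.05 and -3.36 at 1 and 50. A probe set without a named gene, among those with the smallest adjusted p, read 2.73, 6.54 and 5.32 on the CEI arrays, against 879 and 1139.8 on the SCR 12 h arrays, a difference of -6.10 ± 0.46 (adjusted p = 1.32e-06).

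Of 6 tested genes of the GH3 and LBD families 2 fell and 0 rose (median -1.23). Over all tested probe sets 14.4% fell and 17.9% rose. LBD16, a factor that starts lateral roots in response to auxin, read 117, 54.2 and 29.8 on the CEI arrays, against 387 and 659 on the SCR 12 h arrays, without overlap and with a difference of -2.91 ± 0.45 (adjusted p = 0.000200). IAA30, of the Aux/IAA repressors, read 41.2, 25.3 and 15.9 on the CEI arrays, against 168 and 383 on the SCR 12 h arrays, also without overlap, a difference of -2.88 ± 0.37 (adjusted p = 4.54e-05). IAA34 differed by -1.44 ± 0.50 (adjusted p = 0.0351), and its call ended without SCR 12 h replicate 1 or 2 (0.0906 and 0.194), CEI replicate 1 (0.0963) or CEI replicate 3 (0.107). That made 2 of 5 Aux/IAA genes lower and 0 higher, beside the same shares over all tested probe sets.

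**Figure D3:**
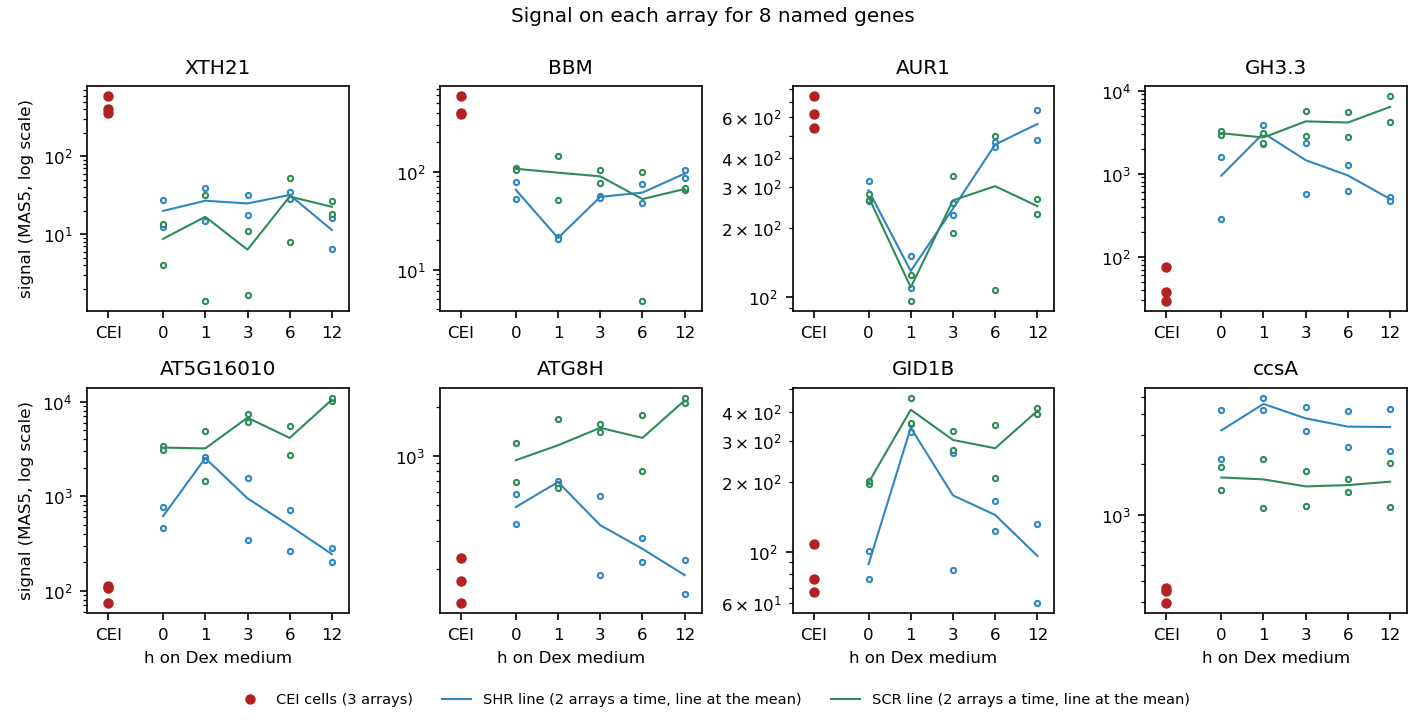
Signal on each array (y axis, log scale) for 8 named genes in CEI cells (left, filled points) and in the SHR and SCR lines at 0 to 12 h on Dex (open points, drawn at even spacing, with lines at the means). XTH21 and BBM lay above both lines in CEI cells and GH3.3 below them, whereas GID1B and ATG8H in CEI cells overlapped with the SHR line at 12 h.

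Among families of calcium and defence signalling lower calls outnumbered higher ones. Of 7 calmodulin-like proteins, which sense calcium, 4 fell and 0 rose, where 14.4% of all tested probe sets fell (median -1.38 against 0.19). CML37 read 43.2, 90.0 and 45.6 on the CEI arrays, against 1292 and 1698 on the SCR 12 h arrays, an order of magnitude apart with no overlap, and a difference of -4.48 ± 0.43 (adjusted p = 4.89e-06). CML42 and CML38 differed by -2.96 ± 0.53 (adjusted p = 0.000724) and -2.49 ± 0.51 (adjusted p = 0.00209), while CML23, at -1.38 ± 0.40 (adjusted p = 0.0159), lost its call without SCR 12 h replicate 1 or 2 (0.0711 and 0.101) or CEI replicate 2 (0.0541). Of 5 WRKY factors, which control defence genes, 4 fell and 0 rose, again beside 14.4% lower over all (median -1.70). WRKY6 read 137, 301 and 241 on the CEI arrays, against 1264 and 1793 on the SCR 12 h arrays, with no overlap and a difference of -2.75 ± 0.44 (adjusted p = 0.000309). WRKY47 differed by -2.11 ± 0.39 (adjusted p = 0.000832), WRKY22 by -1.65 ± 0.38 (adjusted p = 0.00437), and the difference of WRKY53 was -1.70 ± 0.60 (adjusted p = 0.0381). The WRKY22 call ended without SCR 12 h replicate 2 (0.0552) and the WRKY53 call without SCR 12 h replicate 1 or 2 (0.140 and 0.148) or CEI replicate 2 (0.147), which left 2 called WRKY genes without SCR 12 h replicate 2.

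Dehydrins protect proteins and membranes during drying and cold. The tested dehydrin and cold or LEA genes numbered 5, of which 4 fell, beside 14.4% of all tested probe sets (median -1.69). LTI30 read 513, 258 and 356 on the CEI arrays, against 9500.1 and 12071 on the SCR 12 h arrays, far apart, a difference of -4.85 ± 0.48 (adjusted p = 5.85e-06), and COR47 read 3209, 1479 and 1679 on the CEI arrays, against 11831 and 11934 on the SCR 12 h arrays, a difference of -2.57 ± 0.48 (adjusted p = 0.000972). Both sets of groups were separated, and RD2 and COR27 differed by -1.05 ± 0.29 (adjusted p = 0.0125) and -1.69 ± 0.49 (adjusted p = 0.0157). Without SCR 12 h replicate 2 the count was 2 of 5, with the calls of RD2 and COR27 ended at adjusted p of 0.109 and 0.110, and COR27 also lost its call without SCR 12 h replicate 1 or CEI replicate 1. Picked after its values were seen, STZ (ZAT10), a zinc-finger repressor induced by salt and cold, read 246, 389 and 380.4 on the CEI arrays, against 3129 and 2662 on the SCR 12 h arrays, a difference of -3.08 ± 0.41 (adjusted p = 6.54e-05). BIK1, a kinase that relays signals from immune receptors, was also picked after its values were seen. It read 52.9, 92.8 and 67.3 on the CEI arrays, against 929.5 and 989 on the SCR 12 h arrays, a difference of -3.61 ± 0.38 (adjusted p = 8.77e-06). In neither did the groups overlap.

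Plant U-box (PUB) ubiquitin ligases, grouped after the annotation was seen, fell for 4 of 8 and rose for 0, beside 14.4% lower over all tested probe sets (median -1.41). PUB22, PUB23 and PUB24 are related ligases that damp immune signalling. PUB22 read 180.4, 241 and 305 on the CEI arrays, against 1409 and 1918 on the SCR 12 h arrays, PUB23 157, 277 and 205 against 971 and 1853, and PUB24 62.3, 49.1 and 28.7 against 158 and 250.1. All CEI values were the lower ones in each, with differences of -2.74 ± 0.39 (adjusted p = 0.000114), -2.63 ± 0.41 (adjusted p = 0.000210) and -1.93 ± 0.48 (adjusted p = 0.00672) in that order. The PUB24 call ended without SCR 12 h replicate 2 (0.0881).

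Glutathione S-transferases of the tau class couple reactive compounds to glutathione. Of 8 tested, 6 fell and 0 rose, beside 14.4% lower over all tested probe sets (median -1.45), whereas ATGSTF13 of the phi class (above) rose. GSTU25 read 403, 489.9 and 425 on the CEI arrays, against 5331 and 5766 on the SCR 12 h arrays, tight within each group and without overlap, for a difference of -3.63 ± 0.37 (adjusted p = 6.79e-06). GSTU22 differed by -3.52 ± 0.54 (adjusted p = 0.000189) and GSTU18 by -2.75 ± 0.46 (adjusted p = 0.000406). GSTU27 was -1.43 ± 0.39 (adjusted p = 0.0107) and lost its call without SCR 12 h replicate 1 (0.0878); without SCR 12 h replicate 2 the count of lower members was 4.

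UDP-glycosyltransferases attach sugars to hormones and secondary compounds. Among 36 of them, 14 fell and 2 rose, where 14.4% and 17.9% of all tested probe sets did (median -0.53). UGT76E12 read 0.757, 20.15 and 0.760 on the CEI arrays, against 151 and 308 on the SCR 12 h arrays, with 2 CEI arrays near the bottom of the range and CEI replicate 2 higher, a difference of -3.90 ± 0.51 (adjusted p = 5.38e-05). UGT73D1 differed by -3.61 ± 0.46 (adjusted p = 3.92e-05) and UGT76B1 by -3.16 ± 0.45 (adjusted p = 0.000108). UGT78D1, which adds rhamnose to flavonols, went the other way, at 2.17 ± 0.44 (adjusted p = 0.00177). Without SCR 12 h replicate 2 or CEI replicate 1 the lower count was 8 and 9. AER, an alkenal reductase picked after its values were seen, read 15.5, 121 and 25.6 on the CEI arrays, against 992 and 815 on the SCR 12 h arrays, a difference of -4.21 ± 0.48 (adjusted p = 1.72e-05) in spite of a high CEI replicate 2.

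ATG8 proteins are joined to the membrane of autophagosomes, the vesicles that carry cell contents to the vacuole for breakdown. Of 10 tested autophagy genes, 9 of them probe sets for ATG8 forms, 6 fell and 0 rose, where 14.4% of all tested probe sets fell (median -1.28). ATG8H read 233, 124 and 169 on the CEI arrays, against 2122 and 2268 on the SCR 12 h arrays, and ATG8E read 99.1, 35.2 and 73.9 on the CEI arrays, against 647 and 793 on the SCR 12 h arrays. In both the SCR arrays were several times above all CEI arrays, with differences of -3.61 ± 0.47 (adjusted p = 5.35e-05) and -3.29 ± 0.45 (adjusted p = 7.47e-05). ATG8D and ATG8F differed by -1.56 ± 0.28 (adjusted p = 0.000667) and -1.54 ± 0.30 (adjusted p = 0.00142). These 4 calls held when any of the 5 arrays was left out, and the count stayed at 5 or 6. The SCR line averaged 939, 1160.2, 1487, 1288 and 2195 for ATG8H at 0, 1, 3, 6 and 12 h, against 483, 688, 373, 267 and 184 in the SHR line.

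Sorting proteins of the VPS group, gathered after the annotation was seen, fell for 5 of 8 and rose for 0, against 14.4% lower over all tested probe sets (median -0.93). VPS20.1 and VPS2.1, of the ESCRT machinery that sorts membrane proteins into vesicles for breakdown, differed by -1.20 ± 0.28 (adjusted p = 0.00495) and -1.15 ± 0.32 (adjusted p = 0.0120). The VPS2.1 call ended without SCR 12 h replicate 1 or 2 (0.0799 and 0.0647), and the count was 2 and 3 without SCR 12 h replicate 1 and 2. Ubiquitin proteases, which take ubiquitin off proteins, were also gathered after the annotation was seen. They rose for 5 of 12 and fell for 0, against 17.9% higher (median 0.54). UBP24 read 831, 989.9 and 844 on the CEI arrays, against 365 and 369 on the SCR 12 h arrays, without overlap, a difference of 1.25 ± 0.31 (adjusted p = 0.00677), and its call ended without SCR 12 h replicate 2 (0.0520). Only 1 and 0 of the 12 were called without SCR 12 h replicate 1 and 2.

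Cell wall families had calls in both directions, with 17.9% of all tested probe sets higher and 14.4% lower. Of 8 xyloglucan enzymes 1 rose (XTH21, above) and 3 fell, and these counts were the same without any 1 of the 5 arrays. XTH18 read 83.9, 251 and 159 on the CEI arrays, against 1982 and 2360.2 on the SCR 12 h arrays, without overlap, a difference of -3.76 ± 0.51 (adjusted p = 7.39e-05), and XTH20 and XTH32 differed by -2.90 ± 0.47 (adjusted p = 0.000336) and -2.52 ± 0.47 (adjusted p = 0.00102). Of 13 expansins 2 rose and 2 fell, shares close to those over all tested probe sets: EXPA15 (above) and EXPB3 at 1.33 ± 0.45 (adjusted p = 0.0331), EXPA8 at -1.78 ± 0.46 (adjusted p = 0.00865) and EXLA1 at -1.76 ± 0.55 (adjusted p = 0.0219). Calls other than EXPA15 ended without 1 array, that of EXPB3 without SCR 12 h replicate 1 or 2 (0.0686 and 0.219) or CEI replicate 2 (0.132), that of EXPA8 without SCR 12 h replicate 2 (0.148) and that of EXLA1 without SCR 12 h replicate 1 or 2 (0.120 and 0.0882), CEI replicate 1 (0.0578) or CEI replicate 2 (0.0776). Cellulose synthase-like genes rose for 3 of 7 and fell for 0 (median 0.79). The 3 were of the CSLC group, which makes the glucan backbone of xyloglucan. CSLC5 read 237, 308 and 285 on the CEI arrays, against 120.1 and 132 on the SCR 12 h arrays, without overlap and with a difference of 1.07 ± 0.24 (adjusted p = 0.00413), and CSLC12 and ATCSLC08 differed by 1.55 ± 0.43 (adjusted p = 0.0124) and 1.13 ± 0.28 (adjusted p = 0.00702). These last 2 calls ended without SCR 12 h replicate 2 (adjusted p = 0.109 and 0.0796).

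Further families had 1 to 3 called members each, beside 17.9% higher and 14.4% lower over all tested probe sets. Of 7 tubulins, the subunits of microtubules, 1 rose and 1 fell, TUB7 at 0.98 ± 0.28 (adjusted p = 0.0153) and TUA1 at -1.02 ± 0.32 (adjusted p = 0.0241). The TUB7 call ended without SCR 12 h replicate 2 (0.139) and the TUA1 call without SCR 12 h replicate 2 (0.214), CEI replicate 1 (0.0661) or CEI replicate 3 (0.0629). Of 6 SWEET sugar transporters SWEET17 and SWEET2 fell, at -1.36 ± 0.30 (adjusted p = 0.00348) and -1.46 ± 0.43 (adjusted p = 0.0166), the first call ending without SCR 12 h replicate 1 (0.0546) and the second without SCR 12 h replicate 1 or 2 (0.0633 and 0.117) or CEI replicate 3 (0.0570). MADS-box factors had 1 rise in 8, AGL21 at 0.98 ± 0.32 (adjusted p = 0.0291), which ended without SCR 12 h replicate 1 or 2 (0.111 and 0.134) or CEI replicate 1 (0.117). In the IQD family of calmodulin-binding proteins, taken up after the annotation was seen, 1 of 10 rose and 2 fell (median 0.49). IQD22 read 6.13, 28.5 and 34.7 on the CEI arrays, against 749 and 522 on the SCR 12 h arrays, far apart and with a difference of -4.39 ± 0.61 (adjusted p = 8.66e-05). IQD23 fell as well, at -1.27 ± 0.43 (adjusted p = 0.0324), whereas IQD16 rose at 1.70 ± 0.44 (adjusted p = 0.00876). The IQD23 call ended without SCR 12 h replicate 1 or 2 (0.0915 and 0.175), CEI replicate 1 (0.0841) or CEI replicate 3 (0.0777) and the IQD16 call without SCR 12 h replicate 2 (0.105).

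Of 68 tested plastid-encoded transcripts 9 fell and 0 rose, where 14.4% of all tested probe sets fell and 17.9% rose. Their median was -0.47, against 0.19 over all, and its sign rested on 1 array: it was 0.05 without SCR 12 h replicate 1 and -0.99 without replicate 2. Plastid transcripts are mostly not polyadenylated, so their level on arrays primed from poly(A) tails is an indirect measure. The gene ccsA, for a cytochrome c assembly factor, read 353, 298 and 367 on the CEI arrays, against 2031 and 1114 on the SCR 12 h arrays, without overlap and with a difference of -2.12 ± 0.38 (adjusted p = 0.000756). The photosystem gene psbA read 30.2, 16.3 and 92.9 on the CEI arrays, against 381 and 116 on the SCR 12 h arrays, where the SCR arrays lay far apart, and its call at -2.21 ± 0.57 (adjusted p = 0.00819) ended without SCR 12 h replicate 1 (0.155). Without SCR 12 h replicate 1 there was 1 called plastid gene, and without CEI replicate 2 or 3 there were 5 and 6. In the mitochondrial genome 2 of 21 probe sets fell and 0 rose, with a median of -0.18 that was 0.24 without SCR 12 h replicate 1 and 0.06 without CEI replicate 3. The 2 were cox1 at -1.74 ± 0.43 (adjusted p = 0.00684) and matR at -1.47 ± 0.39 (adjusted p = 0.00975). Both calls ended without SCR 12 h replicate 1 (adjusted p = 0.133 and 0.134), while 5 were called without SCR 12 h replicate 2.

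**Figure D4:**
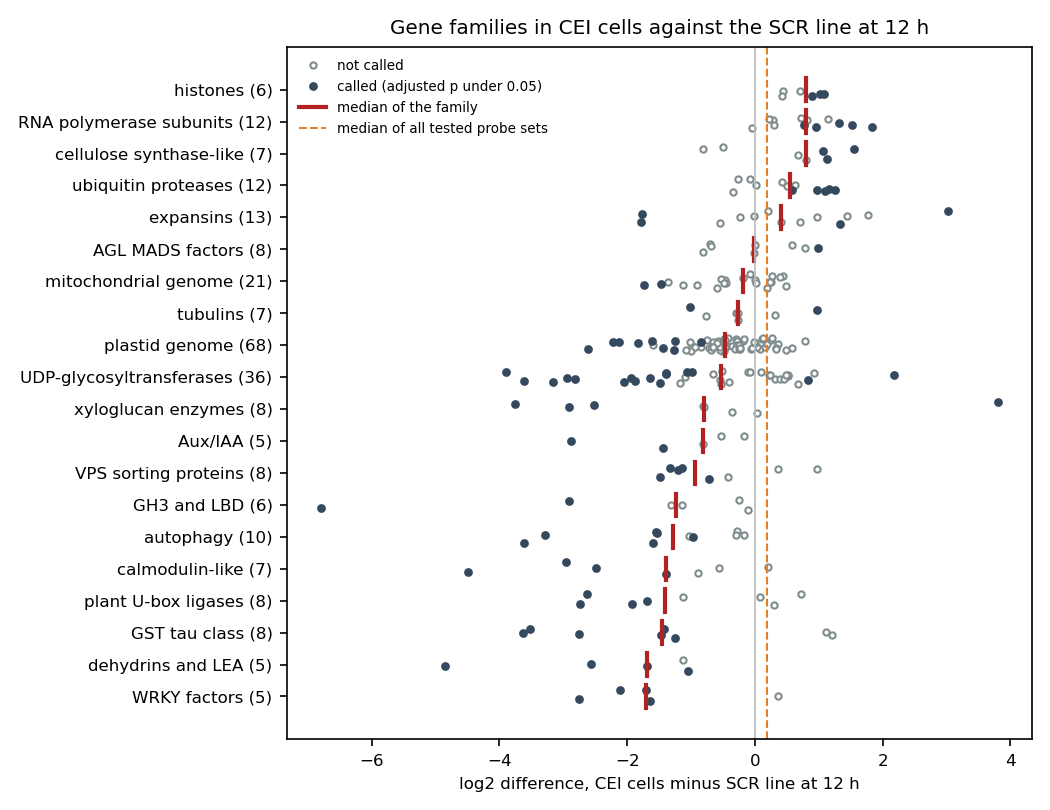
Log2 difference between CEI cells and the SCR line at 12 h (x axis) for each tested member of 20 gene families (rows, number of members in brackets), with filled points for members past an adjusted p of 0.05 and a red bar at the family's median. The medians of WRKY, tau class, U-box, calmodulin-like, autophagy, and GH3 and LBD genes and of the dehydrin and cold or LEA list lay below -1. Those of histones and RNA polymerase subunits lay near 0.80, against 0.19 for all tested probe sets (dashed line).

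Set beside the SHR line at 12 h, which had the same time and dose of Dex as the SCR line, CEI cells gave fewer calls. The arrays of the SHR line also stood apart in a control probe set, AFFX-r2-Bs-dap-3_at. It read 112 to 1218 on them, 0.665 to 8.40 on the SCR line arrays and 2.24 to 5.13 on the CEI arrays. This goes with the line, so its part in the SHR comparisons cannot be told apart from that of the line. CEI cells against the SHR line gave 224 probe sets higher (1.4%) and 329 lower (2.06%), 3.46% of those tested, and the SHR line against the SCR line at 12 h gave 938 higher (5.87%) and 1179 lower (7.38%), 13.2% together. Without 1 array at a time the first comparison gave 70 to 151 higher and 99 to 252 lower, and the second 50 to 161 higher and 248 to 543 lower. These comparisons share arrays with the main one, CEI or SCR, so their values are given only side by side. The SHR minus SCR difference at 12 h is also the test of whether a CEI difference was unequal against the lines. AT5G16010 read 200.2 and 286 in the SHR line at 12 h, far below the SCR line. Its SHR minus SCR difference was -5.40 ± 0.61 (adjusted p = 0.000126), and CEI minus SHR was -1.23 ± 0.56 (adjusted p = 0.282). For ATG8H these were -3.54 ± 0.52 (adjusted p = 0.000645) and -0.07 ± 0.47 (adjusted p = 0.971), and for GID1B -2.05 ± 0.42 (adjusted p = 0.00570) and -0.12 ± 0.38 (adjusted p = 0.930). RAD5 read 47.9 and 66.3 in the SHR line, with 2.32 ± 0.33 (adjusted p = 0.000562) for SHR minus SCR and -0.24 ± 0.30 (adjusted p = 0.770) for CEI minus SHR.

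Other genes had CEI cells apart from both lines. XTH21 read 16.3 and 6.46 in the SHR line at 12 h, and its differences were -0.63 ± 0.63 (adjusted p = 0.506) for SHR minus SCR and 4.44 ± 0.57 (adjusted p = 0.000387) for CEI minus SHR. BBM read 86.5 and 105, with 0.46 ± 0.61 (adjusted p = 0.630) and 2.12 ± 0.56 (adjusted p = 0.0434) in the same order. Peroxidase 71 (AT5G64120) read 621 and 1565, with -0.71 ± 0.69 (adjusted p = 0.488) and -4.74 ± 0.63 (adjusted p = 0.000445). The plastid gene ccsA read 2402 and 4255, above the SCR line, with 1.08 ± 0.42 (adjusted p = 0.0884) and -3.20 ± 0.38 (adjusted p = 0.000226). GH3.3 lay between, at 525 and 463 in the SHR line, with -3.57 ± 0.71 (adjusted p = 0.00496) and -3.22 ± 0.65 (adjusted p = 0.00972), so that both steps passed the threshold. As families, the SHR minus SCR median was -1.20 for autophagy genes (7 of 10 lower, where 7.38% of all probe sets were), -0.48 for WRKY factors (1 of 5 lower) and 0.85 for plastid genes (7 of 68 higher, where 5.87% were). The CEI minus SHR median of plastid genes was -1.36, with 21 of 68 lower and 0 higher, where 2.06% of all probe sets were lower.

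Against the SCR line at 0 h, before Dex, CEI cells differed in 732 probe sets upward (4.58%) and 1095 downward (6.85%), 11.4% together, fewer than against 12 h. The change of the SCR line itself between these times passed for 1 probe set, upward (0.00626%), and 0 downward, so for all other genes a difference between these comparisons was not shown. At an unadjusted p under 0.05 the SCR line changed in 1236 probe sets. Without 1 array at a time the CEI comparison with 0 h gave 70 to 483 higher and 218 to 794 lower. AT5G16010 read 3434 and 3109 at 0 h, between CEI cells and the SCR line at 12 h, and its CEI minus 0 h difference was -4.95 ± 0.56 (adjusted p = 8.66e-05). GH3.3 read 2895 and 3233 at 0 h, with -5.83 ± 0.65 (adjusted p = 7.79e-05). XTH21 read 13.4 and 4.09, with 4.63 ± 0.57 (adjusted p = 0.000175), and BBM 109.5 and 104, with 1.97 ± 0.56 (adjusted p = 0.0302). The ATGSTF13 reading was 315 and 419 at 0 h, above the SCR line at 12 h and below CEI cells, with 1.24 ± 0.41 (adjusted p = 0.0616). AUR1 read 279 and 263, with 1.18 ± 0.42 (adjusted p = 0.0760).

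Over the whole series, CEI arrays were above all 20 time-course arrays for 7.38% of tested probe sets and below them for 6.13%. Among the 2856 probe sets higher in CEI cells than in the SCR line at 12 h, 984 (34.5%) had every CEI array above all 20, and among the 2296 lower ones 837 (36.5%) had every CEI array below all 20. The SCR 12 h arrays were the extreme ones less often. Both stood above the other 21 arrays for 262 of the 2296 (11.4%, against 1.78% of all tested) and below them for 140 of the 2856 (4.90%, against 1.31%). These shares describe the same arrays as the calls and are not a separate test. RAD5 was of the last kind, with SCR 12 h readings of 3.53 and 3.05 under every other array, and XTH21, BBM and UBC37 were among those with CEI arrays above all.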

How the data were processed

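The authors deposited linear signal intensities from MAS5, per the submitters' processing notes, and its version is not given in the sources used here. RNA went through 2 amplification cycles, per the labels. Of 22810 probe sets 64 were controls. After a pseudocount of 10 and log2, probe sets above the 40th percentile of their own array on at least 2 arrays were tested, 15983 in all. Group means were fitted with limma 3.58.1 in R 4.3.3 (lmFit, and eBayes with trend), for 11 groups on 23 arrays, with 12 residual degrees of freedom, two-sided tests and Benjamini-Hochberg adjustment over all tested probe sets at 0.05. Errors after log2 differences are its standard errors, with a median of 0.35. The number of arrays limits the precision. The fit was tested on simulated data.

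The supplied annotation named 1 gene for 13513 probe sets and several for 503. Of the tested ones 8850 (55.4%) named 1 gene. Names came from it and from RefSeq, which matched 13436. Of 149 listed loci 22 were tested. The members and lists were chosen with earlier results of these data known. The named genes were the 12 largest called differences in each direction without overlap, every tested member of the niche, ground tissue, cortex, endodermis, cell cycle, replication and gibberellin receptor lists, up to 4 called members of other lists by adjusted p, and at most 2 probe sets without a gene in each direction. The tested members of the stele and epidermis lists were named as well, outside that rule. Other genes outside it are said to have been picked after their values or the annotation were seen. Only some of the families gathered from the annotation are shown. Among those left out, 0 of 10 PRA proteins were called, and 1 of 11 TRM proteins fell and 0 rose. Of 12 beta-glucosidases, also left out, 2 rose and 3 fell. Alternatives were another pseudocount, filter, scaling, set of arrays, a robust fit, a replicate block and leaving out each array.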

Additional observations from a re-analysis of the deposited data

Results flagged for a closer look

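Among the genes with the largest downward differences in CEI cells against the SCR line at 12 h, the following also differed between the SHR and SCR lines at 12 h, which is the test of whether the CEI difference was unequal against the lines. The SHR minus SCR differences (log2, limma) were -1.96 (adjusted p = 0.0481) for AT2G38870, -3.57 (adjusted p = 0.00496) for GH3.3, -5.40 (adjusted p = 0.000126) for AT5G16010 and -6.05 (adjusted p = 0.000111) for AT5G01380. They were -4.85 (adjusted p = 0.000454) for AT1G14890, -3.95 (adjusted p = 0.00174) for AT2G32190, -2.94 (adjusted p = 0.0110) for AT3G29410, -4.59 (adjusted p = 7.55e-05) for PRN and -3.30 (adjusted p = 0.00202) for AT2G22880. The SCR 12 h arrays enter both comparisons. The SHR 12 h arrays also differed from them in the control probe set AFFX-r2-Bs-dap-3_at, as given above.

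A control probe set outside the tested ones, AFFX-r2-At-U12639_at, read 813, 501 and 304 on the CEI arrays, against 0.757 to 27.6 on the 20 time-course arrays. What it detects is not given in the sources used here.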

How the results depend on the processing

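The counts for CEI cells against the SCR line at 12 h (2856 higher, 2296 lower) stayed within 1.5 times under each alternative that kept all arrays of the comparison, from 2432 to 3796 higher and 2166 to 2668 lower, and leaving out 1 array gave 851 to 2294 higher and 1194 to 2114 lower. Replicate numbers were not shown to pair the CEI arrays with the SCR 12 h arrays (r = 0.0591 between replicate 1 minus 2 differences of these groups, across probe sets). The replicate block gave 2882 higher and 2186 lower for this comparison. Pairing among the time-course groups was not measured. For CEI cells against the SHR line at 12 h, a fit of those arrays alone gave 337 higher, and leaving out 1 array 70 to 151 higher and 99 to 252 lower. For the SHR against the SCR line at 12 h the higher count was 591 without the filter, 1965 in a fit of those arrays alone, 2086 without the SCR 6 h arrays and 1505 with the replicate block, and leaving out 1 array gave 50 to 161 higher and 248 to 543 lower. For CEI cells against the SCR line at 0 h it was 1521 in a fit of those arrays alone and 1266 without the SCR 6 h arrays, and leaving out 1 array gave 70 to 483 higher and 218 to 794 lower. For the SCR line at 12 h against 0 h, a pseudocount of 50 gave 6 higher and 1 lower, no filter 2 higher, those arrays alone 245 higher and 25 lower, the replicate block 2 higher, and leaving out 1 array 0 to 2 higher and 0 to 1 lower. The cause of these shifts was not tested, except that leaving out an array leaves fewer samples. No direction of a named gene that had been called reversed. The comparison has 2 arrays on the SCR side, no SCR line without Dex at 12 h, and 2 marker lines, and signals near the bottom of the range carry little precision.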
